A study of Mus musculus with 6 samples.

Results

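Voltage-gated sodium channel beta subunits were measured in pools of mouse dorsal root ganglion neurons on 6 Affymetrix expression arrays. The 3 genes described are Scn2b, Scn3b and Scn4b, taken by gene symbol from the 18193 genes that had a probe set with 1 symbol on the array. Together they had 6 probe sets, of which 3 belonged to Scn2b, 2 to Scn3b and 1 to Scn4b. A gene's leading probe set was the one whose log2(signal + 32) was highest on average, and all 3 genes passed the filter on low values that kept 9097 genes for testing. Each array held RNA from 1 pool of neurons of 1 title code (L3-B, L3-S or L6-R) and 1 size class (big, or medium to small diameter). Each L3-B pool was a control of 50 neurons. Pools of L3-S and of L6-R held 20 neurons labelled with DiI, a membrane dye that travels back along axons to the cell body. All RNA was total RNA from dorsal root ganglia. The labels for these arrays give no strain, age, genotype, meaning of the codes, site of the dye or number of animals, and describe picking by size and dye with no marker. Because control, number of neurons and code L3-B go together, these cannot be told apart in any difference from L3-B.

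Beta subunits are small proteins with an extracellular immunoglobulin fold, a single membrane span and a short cytoplasmic tail. They join the pore-forming alpha subunits of sodium channels, alter how fast the channels open and inactivate and how many reach the membrane, and also act as cell adhesion molecules at nodes of Ranvier and axon initial segments. The products of Scn2b and Scn4b are bound to the alpha subunit by a disulfide bond, and that of Scn3b is bound without one. The tail of the Scn4b product can block the open pore and give the resurgent current of fast-firing neurons. In rat sensory neurons, beta-3 transcript and beta-2 protein have been reported to increase after nerve injury.

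Scn2b and Scn3b rose several-fold in L6-R against L3-B, by 2.27 ± 0.36 and 2.58 ± 0.34 log2 (SE, n = 2 arrays a code), while Scn4b differed by -0.14 ± 0.22. In L3-S against L3-B both genes stood close to each other and to the threshold. Scn3b, at 2.01 ± 0.34, passed (limma adjusted p = 0.0353), and Scn2b, at 1.94 ± 0.36, fell just short (limma adjusted p = 0.0534). The Scn3b call was lost under several other settings, and the difference between the genes was not tested. No beta subunit's leading probe set passed between L6-R and L3-S or between the size classes, but the second Scn2b probe set was higher in L6-R than in L3-S. All differences are those of log2(signal + 32), a scale on which changes of low signals are shrunk. They come from 1 limma fit to all 6 arrays with code and size class as additive terms. No code and size class had a second array, so p-values measure only the spread left between these pools, which can be technical.

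All 3 genes lie on chromosome 9 (GRCm38.p6). Scn3b spans chr9:40269216-40291618, Scn2b chr9:45117876-45130070 and Scn4b chr9:45138624-45154155. Scn2b and Scn4b are direct neighbours on the plus strand, with 8553 bases and 0 annotated genes between them, and their signals followed different patterns over the arrays. Their RefSeq promoter windows are therefore printed side by side, from 250 bases before to 50 bases after the gene start, at chr9:45117626-45117925 for Scn2b and chr9:45138374-45138673 for Scn4b. Of the 3 members, 2 had a window. Capitals mark matches to any of 5 motifs searched on both strands. These were the TATA box (TATAAA), the CCAAT box (CCAAT), the GC box (GGGCGG), the AP-1 motif (TGANTCA) and the E-box (CANNTG, which reads the same on both strands).
Scn2b: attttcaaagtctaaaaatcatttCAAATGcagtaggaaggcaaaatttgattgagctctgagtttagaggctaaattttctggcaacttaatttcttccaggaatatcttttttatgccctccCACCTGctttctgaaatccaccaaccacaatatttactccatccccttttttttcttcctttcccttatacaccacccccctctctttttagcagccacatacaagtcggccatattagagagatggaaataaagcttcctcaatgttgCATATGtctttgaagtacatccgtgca
Scn4b: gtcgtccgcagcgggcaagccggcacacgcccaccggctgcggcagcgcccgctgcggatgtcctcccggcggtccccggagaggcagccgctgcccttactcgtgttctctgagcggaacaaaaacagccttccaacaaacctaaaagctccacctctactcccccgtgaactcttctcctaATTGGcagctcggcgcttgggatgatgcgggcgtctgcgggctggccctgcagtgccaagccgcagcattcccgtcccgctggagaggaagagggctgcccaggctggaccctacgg
The Scn2b window had 38.3% G and C and 2 CpG dinucleotides, and 7.45% of the 32851 windows in the table had a lower G and C content. The Scn4b window had 66.3% G and C and 26 CpG dinucleotides, and 84.4% of windows had a lower G and C content. The median over all windows was 52.7%. The E-box matched at 3 places in the Scn2b window and 0 in the Scn4b window, and was present in 72.3% of all windows. The CCAAT box, read on the minus strand, matched at 1 place in the Scn4b window and 0 in the Scn2b window, and was present in 37.4% of all windows. The other 3 motifs matched neither window, and were present in 13.6% (TATA box), 35.7% (GC box) and 7.81% (AP-1 motif) of all windows. A match is a description of the letters and not a site shown to be used.

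As checks of the arrays, all 8 listed markers of sensory neurons, such as Tubb3, Isl1 and Prph, had signals over 32 on every array, and their summed signal ran from 40722 to 56077. Between 55.3% and 59.5% of the probe sets on an array read under 32, close to background. For Actb, the 3' over 5' ratio of the control probe sets, which is higher where RNA is shorter, ran from 3.73 (L3-B, medium to small) to 13.9 (L3-B, big), both of them controls. Nefh, the heavy neurofilament of large neurons, was higher in the big than in the medium to small array in L3-B (12609 and 9055) and L6-R (9581 and 7766) and lower in L3-S (8744 and 10408). Other markers of large neurons also varied in direction, with the receptor Ntrk3 and the axonal protein Cntnap2 higher in the big array of every code and the synaptic protein Vamp1 lower in the big array of every code. Pvalb was lower in the big array in L3-B and L3-S and higher in L6-R. Markers of neuron subtypes differed between codes. As a measure for the counts below, 4.66% of all 9097 tested genes rose and 2.85% fell in L6-R against L3-B. In L3-S against L3-B 0.923% rose and 0.0989% fell. The 5 markers of large myelinated-fibre neurons on the array summed to 19329 to 23595 in L3-B, 18003 to 20311 in L3-S and 11775 to 13895 in L6-R, and against L3-B 3 of 5 fell in L6-R and 1 of 5 rose in L3-S. Nefh, which holds much of that sum, differed by -0.31 log2 in L6-R. Of 7 nociceptor markers 4 were on the array, Scn10a among them. These summed to 2499 to 2622, 4112 to 4444 and 7541 to 9788 in that order of codes, and 3 of 4 rose in L6-R and 1 of 4 in L3-S. Tac1 holds most of the rise of the sum, at 74.8 and 167 in L3-B and 4090 and 5435 in L6-R. P2rx3, most of the sum in L3-B, differed by 0.37 in L6-R. Markers of other cells were also measured. Of 13 satellite glia and Schwann cell markers, 10 were on the array with a summed signal of 11995 to 12890 in L3-B, 13960 to 17511 in L3-S and 15254 to 21219 in L6-R. Of the 9 tested, 4 rose in L6-R and 1 in L3-S against L3-B. Their differences ran from -0.29 (S100b) to 2.28 log2 (Apoe) in L6-R and from -0.35 (Glul) to 2.14 (Apoe) in L3-S. S100b and Pmp22, which hold much of the sum, differed by -0.29 and 0.50 in L6-R. The 9 connective tissue and vessel markers summed to 327 to 418 in L3-B, 1451 to 1537 in L3-S and 1076 to 1828 in L6-R, and of the 4 tested 3 rose in L6-R and 1 in L3-S. The 7 blood and immune markers on the array summed to 124 to 157, 137 to 194 and 173 to 293, and the 1 tested did not pass. The myelin gene Mag, the endothelial genes Pecam1 and Cdh5 and the leukocyte gene Ptprc were under 32 on every array. The part of these neuron subtypes and other cells in the differences of Scn2b and Scn3b was not tested. In such pools, fewer cells of a type and less RNA per cell cannot be told apart.

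Scn3b encodes the beta-3 subunit. On its leading probe set (1435767_at) the L3-B arrays read 83.2 (big) and 60.3 (medium to small), the L3-S arrays 263 and 554 in that order of size, and the L6-R arrays 662 and 514. Each of the 4 DiI arrays was above both L3-B arrays, and L3-S big was the lowest of the 4. In L6-R against L3-B the gene rose by 2.58 log2, which is 5.97-fold on this scale (95% interval 1.80 to 3.36 log2, limma adjusted p = 0.00323). Big arrays differed by 2.59 and medium to small arrays by 2.56, nearly the same value. In that comparison 7.51% of the 9097 genes passed (4.66% higher and 2.85% lower), and 2 of the 3 members did, both higher. With the mean of both Scn3b probe sets in place of the leading one the value was 1.16 log2 (limma adjusted p = 0.0267). The second probe set read under 32 on every array and pulls that mean toward 0 by construction. The call was lost when all 45037 probe sets were tested with no filter (limma adjusted p = 0.0654). Scn3b held place 46 by size among the 4705 genes that were higher in L6-R.

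In L3-S against L3-B, which shares the L3-B arrays with the comparison above, Scn3b rose by 2.01 log2, or 4.03-fold (95% interval 1.23 to 2.79 log2, adjusted p = 0.0353). It was 1 of 3 members called, where 1.02% of all genes passed (0.923% higher and 0.0989% lower). The difference was uneven, at 1.36 between big arrays and 2.67 between medium to small arrays. With single arrays left out it ran from 1.35 log2 (without the medium to small array of L3-S) to 2.67 log2 (without the big array of L3-S). Leaving out an array of either code leaves 1 array in that code, so no call is read from those fits. The call was lost under 8 other settings, among them the mean of both probe sets (0.94 log2, limma adjusted p = 0.159). The second Scn3b probe set (1426328_a_at) had signals of 6.98 to 21.6 over the 6 arrays, all under 32, and resolves no difference.

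Scn2b encodes the beta-2 subunit. On its leading probe set (1436134_at) the L3-B arrays read 179 (big) and 79.3 (medium to small), the L3-S arrays 450.4 and 687, and the L6-R arrays 975 and 512. Here too each DiI array was above both L3-B arrays, and within L3-S the medium to small array was the higher. In L6-R against L3-B Scn2b rose by 2.27 log2, or 4.84-fold (95% interval 1.44 to 3.11 log2, adjusted p = 0.00758). Big arrays differed by 2.26 and medium to small arrays by 2.29. With each of the 6 arrays left out in turn the values were 1.89 to 2.66 log2. The call was lost when all 45037 probe sets were tested with no filter (limma adjusted p = 0.103). In L3-S against L3-B the difference was 1.94 log2 (95% interval 1.11 to 2.78, adjusted p = 0.0534), with 1.20 between big arrays and 2.69 between medium to small arrays. With single arrays left out this difference ran from 1.20 log2 (without the medium to small array of L3-S) to 2.68 log2 (without the big array of L3-S). Leaving out an array of either code leaves 1 array in that code, so no call is read from those fits. The mean of the Scn2b probe sets gave 1.17 log2 (limma adjusted p = 0.194), a mean that includes the third probe set, under 32 on every array.

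**Figure D1:**
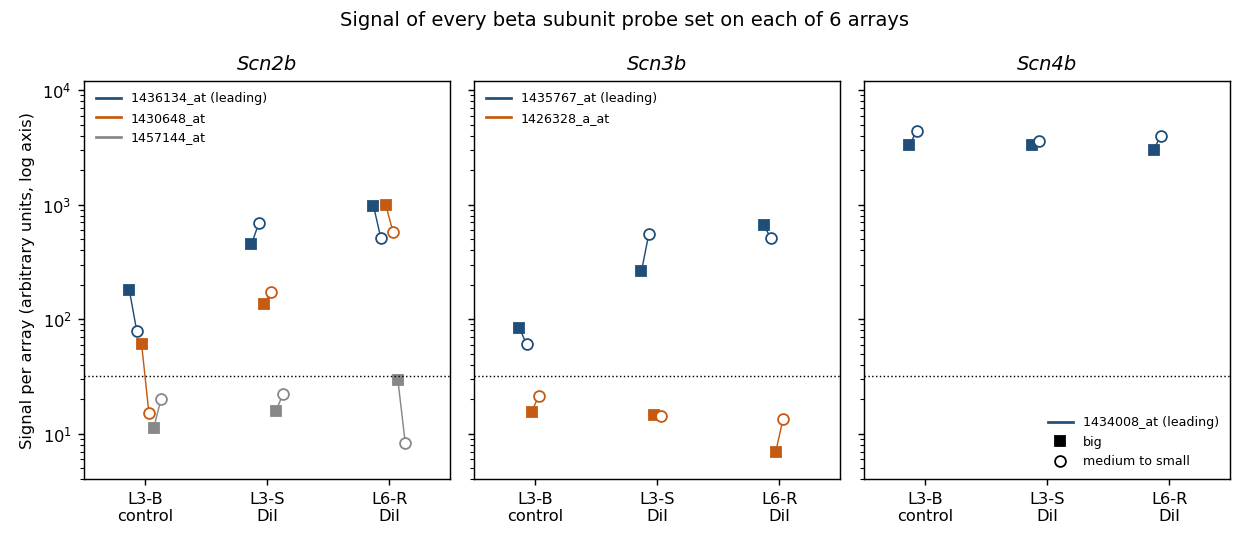
Signal of each of the 6 beta subunit probe sets on each array, on a log axis, by title code. Squares are big and open circles medium to small pools, lines join the 2 arrays of a code, and the dotted line is a signal of 32. The leading Scn2b and Scn3b probe sets are higher on every DiI array than on both L3-B arrays, and Scn4b stays between 3009 and 4403.

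The second Scn2b probe set (1430648_at) separated the DiI codes from each other as well. The L3-B arrays read 60.6 (big) and 15.2 (medium to small), the L3-S arrays 135 and 172, and the L6-R arrays 1002 and 577. Both L6-R arrays were above both L3-S arrays, and these were above both L3-B arrays. In the fit of the 22519 brightest probe sets it was higher in L6-R than in L3-S by 2.11 ± 0.33 log2 (adjusted p = 0.0140), a comparison in which 1.49% of probe sets passed. The leading Scn2b probe set differed there by 0.33 ± 0.37 (adjusted p = 0.773), with an interval of -0.49 to 1.15 that does not reach the interval of the second, 1.38 to 2.84. Against L3-B the second probe set rose by 3.58 ± 0.33 in L6-R (adjusted p = 0.000505, with 3.99% of probe sets called), and differed by 1.48 ± 0.33 in L3-S (adjusted p = 0.12, with 0.382% called). The leading and second Scn2b probe sets thus gave L6-R above L3-S on average, with different sizes and different calls. For the leading one that average is not resolved from 0, and its single pairs were 1.06 (big) and -0.40 (medium to small). In a fit of all 45037 probe sets with no filter, the second probe set did not pass between L6-R and L3-S (2.11 log2, limma adjusted p = 0.155). The signal of the second probe set in L3-B was under 32 on the medium to small array, so the sizes of its differences from L3-B are uncertain. The third Scn2b probe set (1457144_at) had signals of 8.36 to 29.4, all under 32.

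Scn4b encodes the beta-4 subunit. On its probe set (1434008_at) the L3-B arrays read 3326 (big) and 4403 (medium to small), the L3-S arrays 3347 and 3605, and the L6-R arrays 3009 and 4003. The 3 codes overlapped. The mean log2 value of Scn4b was higher than that of 98.0% of the genes on the array, and the signal was far from background in every pool. The difference from L3-B was -0.14 ± 0.22 log2 in L3-S (95% interval -0.65 to 0.37, adjusted p = 0.940) and -0.14 ± 0.22 in L6-R (95% interval -0.65 to 0.37, adjusted p = 0.782). In L6-R against L3-S it was -0.00 ± 0.22 (95% interval -0.51 to 0.51, adjusted p = 0.999). The Scn4b intervals against L3-B lie apart from those of Scn2b and Scn3b, though the difference between the genes was not itself tested.

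**Figure D2:**
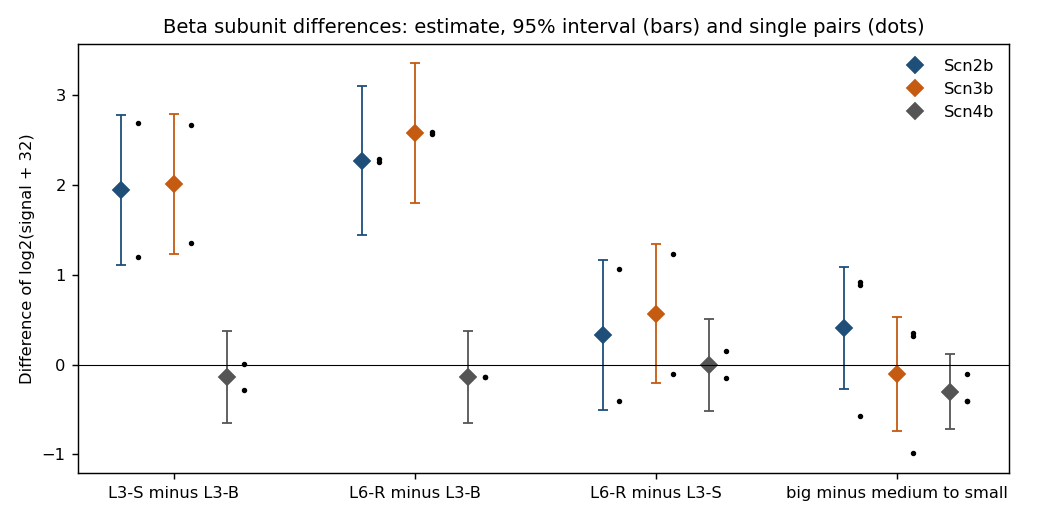
Differences of log2(signal + 32) for the leading probe sets of Scn2b, Scn3b and Scn4b in 4 comparisons. Diamonds are estimates of the fit to 6 arrays, bars their 95% intervals and black dots the differences of single pairs of arrays. Scn2b and Scn3b stand near 2 log2 or above against L3-B, and the Scn4b intervals include 0 in every comparison.

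L6-R was set against L3-S, the codes that shared DiI and the number of neurons. Neither leading probe set passed, with Scn3b at 0.57 ± 0.34 log2 (95% interval -0.21 to 1.34, adjusted p = 0.475) and Scn2b at 0.33 ± 0.36 (95% interval -0.50 to 1.16, adjusted p = 0.718). In this comparison 3.18% of genes passed (1.26% higher and 1.91% lower) and 0 of the 3 members. The single pairs ran in opposite directions. Scn3b was higher in L6-R by 1.24 between big arrays and differed by -0.10 between medium to small arrays, and Scn2b stood at 1.06 and -0.40. Without the L3-S big array the estimates were -0.09 for Scn3b and -0.41 for Scn2b, and without the L6-R big array the Scn2b estimate was -0.03. With the medium to small array of L3-S left out they were 1.23 for Scn3b and 1.07 for Scn2b.

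Big pools were set against medium to small pools over the 3 codes. Of 9097 genes 0 passed (percent called 0, with 320 at an unadjusted p under 0.05), so no member could be read against calls. Scn4b was lower in the big array of every code, by 0.40 log2 in L3-B, 0.11 in L3-S and 0.41 in L6-R, with a difference of -0.31 ± 0.18 (n = 3 arrays per size class, 95% interval -0.72 to 0.11, adjusted p = 0.998). Scn2b was higher in the big array in L3-B (0.92) and L6-R (0.89) and lower in L3-S (-0.58), for a difference of 0.41 ± 0.30 (95% interval -0.27 to 1.09, adjusted p = 0.998). Scn3b had the same signs, at 0.32, 0.35 and -0.99, and a difference of -0.11 ± 0.28 (95% interval -0.74 to 0.53, adjusted p = 0.998). For both genes L3-S was the code in which the medium to small array had the higher signal. The Actb 3' over 5' ratios (big first) were 13.9 and 3.73 in L3-B and 5.42 and 12 in L3-S. In L6-R they were 8.31 and 8.42. In L3-B and L3-S the higher ratio and the higher signal of both genes were on the same array. The part of RNA length in these signs was not tested.

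Scn2b and Scn3b put the 6 arrays in the same order. From high to low it was L6-R big, L3-S medium to small, L6-R medium to small, L3-S big, L3-B big and L3-B medium to small. For Scn2b the steps among the first 4 arrays were 0.49, 0.40 and 0.18 log2, each smaller than the spread of a difference of 2 arrays in the fit (SD 0.52). That SD comes from the limma residual, moderated over genes, and not from repeat arrays, so it is a yardstick only. The Scn2b steps from L3-S big to L3-B big (1.20) and on to L3-B medium to small (0.92) were larger. For Scn3b the steps from L6-R medium to small to L3-S big (0.89) and from there to L3-B big (1.36) exceeded that spread (SD 0.48), and the others (0.10 to 0.32) did not. Pearson's r between Scn2b and Scn3b over the 6 arrays was 0.967 and Spearman's rho was 1. This is a description of 6 pools that share codes and size classes. For Scn4b all steps were 0.15 or less, under the spread of 0.32, and r was -0.62 with Scn2b and -0.41 with Scn3b.

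Among all tested genes, those most like each member over the 6 arrays were found by Pearson's r. For Scn3b they were D430019H16Rik (r = 0.995), the class II histocompatibility gene H2-Eb1 (0.993) and Igsf21, a synaptic adhesion protein of the immunoglobulin superfamily (0.992). D430019H16Rik also matched Scn3b in size, reading 76.6 and 74.2 on the L3-B arrays, 269 and 491 on the L3-S arrays and 609 and 543 on the L6-R arrays (big first), with a difference of 2.50 log2 in L6-R against L3-B. Igsf21 stood at 1.55 and H2-Eb1 at 0.50 in that comparison, and H2-Eb1 signals were low (50.0 to 88.4). For Scn2b they were the transcriptional corepressor Runx1t1 (r = 0.997), the splicing factor Bcas2 (0.996) and Tmem185b (0.990), whose values varied far less, with differences of 0.94, 0.52 and 0.34 in L6-R against L3-B. For Scn4b they were Map3k12, a kinase of axon injury signalling (0.982), Rab5if (0.981) and Tmem205 (0.980). The Rab5if values had a larger SD over the arrays (0.34) than those of Scn4b (0.20). With 6 arrays and 9097 genes, r values of this size are a ranking only.

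**Figure D3:**
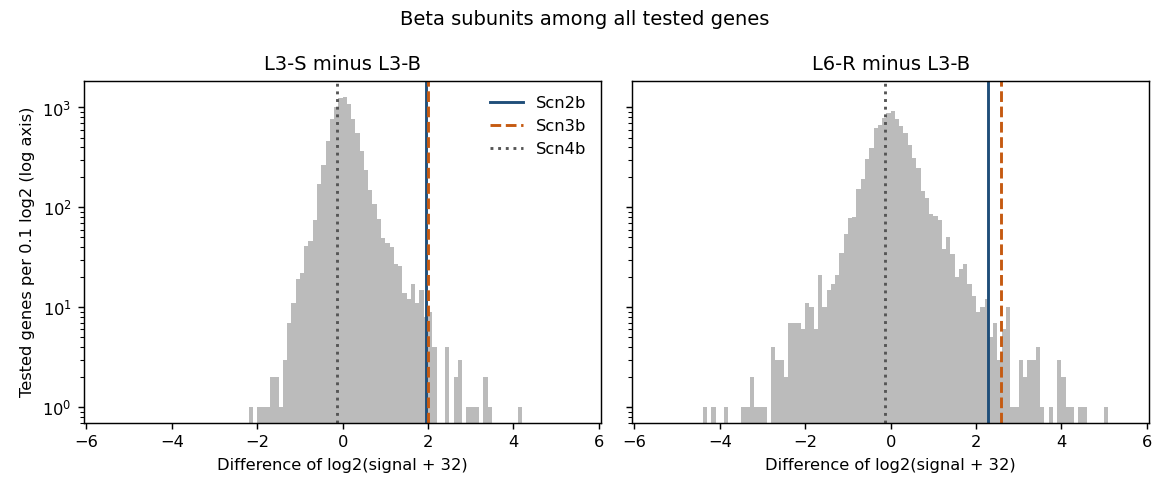
Numbers of tested genes by their difference of log2(signal + 32), in bins of 0.1 log2 and on a log axis, for L3-S and L6-R against L3-B. Vertical lines mark the members, with Scn2b at 1.94 and 2.27 and Scn3b at 2.01 and 2.58 in the upper tail, and Scn4b at -0.14 in both near the median of all genes (0.03 and 0.02).

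Alpha subunits form the pores that beta subunits join. Of 10 listed, 8 were on the array and 6 were tested. In L6-R against L3-B 1 rose, 1 fell and 4 did not pass, where 4.66% of all 9097 genes rose and 2.85% fell. The median was -0.20 beside 0.02 for all genes. Scn10a, the tetrodotoxin-resistant channel of nociceptors, read 121 (big) and 82.8 (medium to small) on the L3-B arrays, 105 and 236 on the L3-S arrays and 490.3 and 287 on the L6-R arrays. L6-R was the highest code, and Scn10a rose there against L3-B by 1.62 ± 0.38 (adjusted p = 0.0375). It did not pass with quantile normalization (1.55, limma adjusted p = 0.0525) or with no filter (1.62, limma adjusted p = 0.114). With single arrays left out it ran from 1.13 (without the big L6-R array) to 2.11 (without the medium to small L6-R array). Scn1a, a channel of large fast-conducting neurons, read 2336 and 2435 on the L3-B arrays, 1960 and 1754 on the L3-S arrays and 1296 and 923 on the L6-R arrays. L6-R was the lowest code, and Scn1a fell there against L3-B by 1.10 ± 0.24 (adjusted p = 0.0268). Scn1a did not pass with a pseudocount of 1 (-1.12, limma adjusted p = 0.0591) or the mean of its probe sets (-0.59, limma adjusted p = 0.228). With single arrays left out it ran from -1.32 (without the big L6-R array) to -0.89 (without the medium to small L6-R array). Other Scn1a probe sets stood at -0.78 and 0.12. Scn9a, the threshold channel of nociceptors, differed by 0.76 (adjusted p = 0.132). In L3-S against L3-B 0 of the 6 passed, where 1.02% of all genes did. The median was -0.28 beside 0.03 for all genes, and Scn10a stood at 0.53 (adjusted p = 0.766).

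Proteins that bind beta subunits at nodes and initial segments held no call in any of the 4 comparisons, where 0% to 7.51% of all genes passed. Of 14 listed, 13 were on the array and 9 were tested, with a median of 0.04 in L6-R and -0.00 in L3-S against L3-B. Ptprz1, a receptor phosphatase that glia also make, differed by 1.30 ± 0.37 (adjusted p = 0.0725) in L6-R and 1.54 ± 0.37 (adjusted p = 0.115) in L3-S. The nodal adhesion protein Nfasc differed by -0.93 ± 0.24 in L6-R (adjusted p = 0.0572) and Cntn2 by 0.77 (adjusted p = 0.0961). Nrcam, another adhesion protein of nodes, stood at -0.91 in L3-S (adjusted p = 0.119) and 0.04 in L6-R, and differed by 0.95 ± 0.22 between L6-R and L3-S (adjusted p = 0.0621). Ank3, which encodes the ankyrin that anchors sodium channels, was at 0.79 in L6-R against L3-B (adjusted p = 0.251).

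Fibroblast growth factor homologous factors, cytoplasmic proteins that bind alpha subunits, and the proteases that cut beta subunits also held no call in any of the 4 comparisons. In these comparisons 0% to 7.51% of all genes passed, so lists this short would hold few calls or none at that share. The median of all genes was 0.02 in L6-R and 0.03 in L3-S against L3-B. Of 4 such factors 3 were tested, with a median of -0.42 in L6-R and -0.08 in L3-S against L3-B, and in L6-R against L3-B Fgf13 stood at 0.62 (adjusted p = 0.168), Fgf12 at -0.52 (adjusted p = 0.340) and Fgf11 at -0.42 (adjusted p = 0.426). Of 9 protease genes 8 were on the array and 7 were tested, with a median of 0.20 in L6-R and 0.11 in L3-S against L3-B. Bace1, the secretase that sheds the extracellular part of beta subunits, had signals of 1889 to 2633 over the 6 arrays and differed by 0.23 ± 0.25 in L6-R (adjusted p = 0.645) and 0.12 ± 0.25 in L3-S (adjusted p = 0.961). Aph1a, a subunit of gamma-secretase, differed by 0.66 in L3-S (adjusted p = 0.276), and its alternative form Aph1b by 0.65 (adjusted p = 0.370). In L6-R, the sheddase Adam10 differed by 0.57 (adjusted p = 0.223) and the gamma-secretase subunit Psen2 by 0.46 (adjusted p = 0.286).

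**Figure D4:**
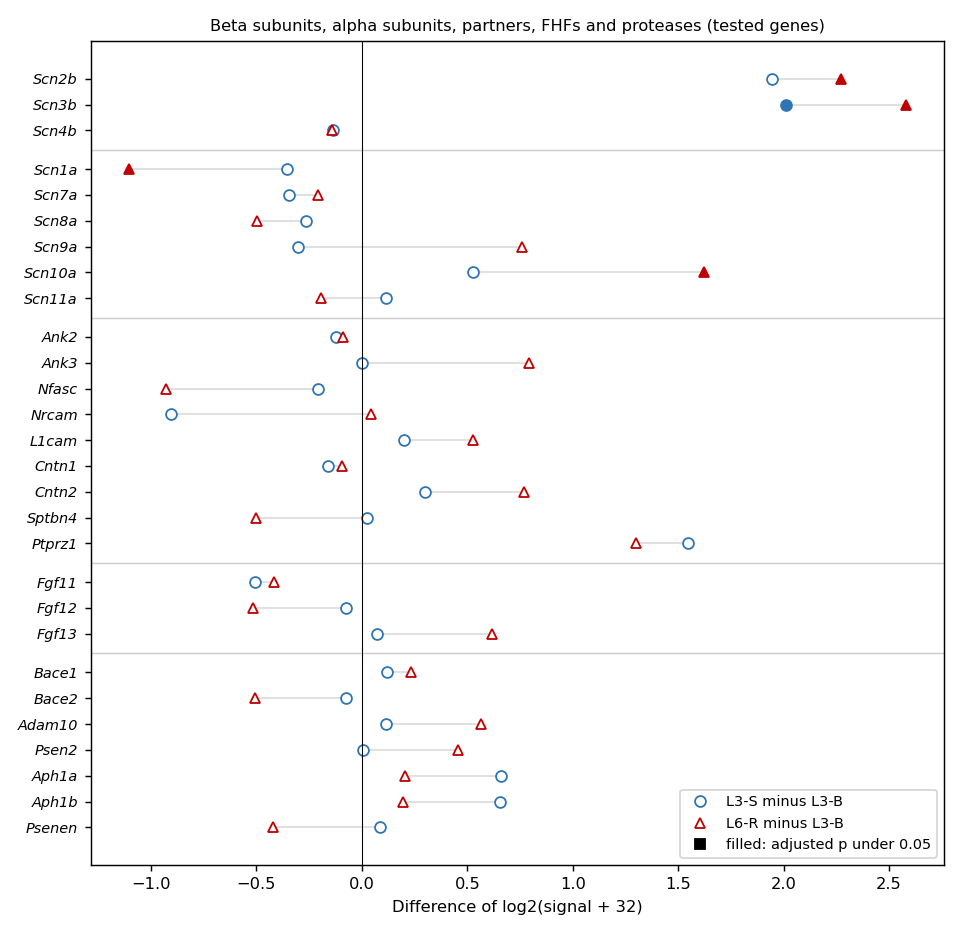
Differences of log2(signal + 32) against L3-B for the tested beta subunits, alpha subunits, node and initial segment partners, fibroblast growth factor homologous factors and proteases, from top to bottom. Circles are L3-S and triangles L6-R, filled where the adjusted p was under 0.05. Filled symbols occur for Scn3b in both comparisons, and in L6-R only for Scn2b (2.27), Scn10a (1.62) and Scn1a (-1.10).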

How the data were processed

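Total RNA from 6 pools of neurons was measured on Affymetrix mouse arrays, 1 array for each of 3 title codes and 2 size classes, as the labels give them. The authors deposited linear intensity values (signals) of 45037 probe sets, beside 64 controls, with a mean of 150 on every array after trimming 2% at each end. They were taken as already scaled. How the authors summarised probes is not given in the sources used here. Probe sets were named by the platform annotation (34945 with 1 symbol, 932 with several, 9160 with none), and current gene records changed 0 symbols. Each gene took its probe set with the highest mean log2(signal + 32), and the upper 50% of genes were tested. R 4.3.3 with limma 3.58.1 (lmFit, eBayes, two-sided, 2 residual and 6.46 prior degrees of freedom) fitted code and size class, with Benjamini and Hochberg adjustment over all 9097 genes and a threshold of 0.05. An interaction leaves no residual. The number of arrays limits the precision. The fit was tested on simulated data. Probe sets other than the leading one were read from a fit of the 22519 brightest. Named genes were every member probe set, listed pathway genes that passed and up to 3 a list with the smallest p, and the 3 genes most like each member; Ank3 and Bace1 were added after their values were seen. The members and lists were chosen with earlier results of these data known. Promoter sequences are RefSeq's (GRCm38.p6). Alternatives were other normalization, pseudocounts, filters, probe set rules, variance models, weights, a covariate and fewer arrays.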

Additional observations from a re-analysis of the deposited data

Results flagged for a closer look

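In 4 cases the difference of a member between codes had opposite signs in the big and the medium to small pair of arrays. With 1 array for each combination, whether the size classes differ was not tested. For L6-R minus L3-S, Scn2b stood at 1.06 in the big pair and -0.40 in the medium to small pair (a gap of 1.46 log2), and Scn3b at 1.24 and -0.10 (a gap of 1.34). Scn4b stood at -0.15 and 0.15 for L6-R minus L3-S (a gap of -0.30) and at 0.01 and -0.29 for L3-S minus L3-B (a gap of 0.30). The second Scn2b probe set was higher in L6-R in both pairs, by 2.63 and 1.58. No group had the 4 arrays needed to look for a single outlying array.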

How the results depend on the processing

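The rises of Scn2b and Scn3b in L6-R against L3-B kept their direction under every alternative listed at the outset that was run. Both also kept their side of the threshold under those that left 2 arrays in each code compared. The upper 25% filter left Scn3b out. An alternative chosen after seeing the data, every probe set with no filter (45037 tested), ended both calls, at 2.27 (adjusted p = 0.103) and 2.58 (adjusted p = 0.0654). The L3-S against L3-B values sat at the threshold. Scn3b failed it with quantile normalization (1.93), a pseudocount of 1 (2.41) or 4 times the usual one (1.37), no filter, every probe set, every probe set with no filter or array weights (2.01 each), and the mean of probe sets (0.94). Scn2b passed it with a variance trend or only the 4 arrays of those codes (1.94 each) and with the Actb ratio as covariate (1.87). The second Scn2b probe set, added after seeing the data, passed in L6-R against L3-S (2.11), but not in the fit of all 45037 (adjusted p = 0.155). With single arrays left out, Scn2b and Scn3b ran from 1.20 to 2.68 and from 1.35 to 2.67 in L3-S against L3-B. In L6-R against L3-S they ran from -0.41 to 1.07 and from -0.0941 to 1.23. Scn4b ran from -0.29 to 0.0107 and from -0.15 to 0.15 in these comparisons, and Scn3b from -0.34 to 0.33 by size. Signs also turned for uncalled values with array weights (Scn3b by size, 0.0236) and the Actb ratio (Scn4b in L6-R against L3-S, 0.0035). A lone array was assumed to vary like the others. The checks of Scn1a and Scn10a in L6-R against L3-B were added after seeing the data. Both failed the threshold with a pseudocount of 1, no filter, the mean of probe sets and every probe set with no filter. Scn10a also failed it with quantile normalization. The alternatives are not all distinct. Leaving out an array of the code not compared gives the same fit as only the 4 arrays of the codes compared.

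Counts of called genes moved more, and not all are out of the same number tested. That number was 9097 genes unless named here. It was 18193 genes with no filter, 4549 in the upper 25% and 45037 probe sets for every probe set with no filter. Counts from these settings are therefore not directly comparable with the main ones. With L3-S against L3-B (93) they were 46 with a pseudocount of 1, 14 with no filter, 21 in the upper 25%, 41 with the mean of probe sets, 48 with array weights, 512 with the Actb ratio, 171 with 4 arrays, 0 for every probe set with no filter and 61 to 202 with arrays left out. With L6-R against L3-B (683) they were 299 in the upper 25%, 1590 with the Actb ratio, 278 for every probe set with no filter and 356 to 995 with arrays left out. With L6-R against L3-S (289) they were 134, 107 and 115 for the pseudocount of 1, no filter and upper 25%, 633 with array weights, 994 with the Actb ratio, 653 with 4 arrays, 24 for every probe set with no filter and 140 to 653 with arrays left out. By size (0) they were 2 with the Actb ratio and 0 to 1 with arrays left out. The causes of these shifts were not tested. The covariate fit, the fits with 1 array left out and those of only 4 arrays each leave 1 residual degree of freedom. A fit without an array of a code leaves 1 array in that code, so its p-values measure no spread within that code. Signals under 32 resolve no difference.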
